A study of Daphnia magna with 24 samples.

Results

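The subject is a group of 47 array features of the water flea Daphnia magna. These features averaged higher in the same 4 of 12 exposures than in the other 8, with 1 such exposure at each of 4 field sites. They were chosen by measured values, from 6951 features with a value in all 12 exposures and 7680 features on the array. The set holds the second exposure to upstream water, the first to entry water, the first to downstream 1 water and the second to downstream 2 water. A feature was taken when its mean over the set exceeded its mean over the other 8 exposures by at least 0.6, its set exposure lay above the site's own mean at all 4 sites, and its mean over the 9 entry and downstream exposures was under 0.4 in size. The difference between the set and the other exposures, the order within a site and the small mean are therefore properties of the choice, and no test is given for them.

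Adult females aged 14 to 16 days were kept for 24 h at 23.5 °C in water collected at Greenhorn Mine in California. The water came from upstream of the mine, from the mine drainage entry site, and from positions named downstream 1 and downstream 2, which the submitters describe as differing in copper. The animals were genetically homogeneous, 10 to 15 were pooled for each exposure, and each site had 3 exposures. Every exposed pool was compared with unexposed animals in COMBO, a defined freshwater medium, on 2 arrays with Cy3 and Cy5 exchanged. The values are log ratios of both channels. They are taken as log2 here, the base is not stated, and positive likely means more RNA in exposed animals, which is not stated either. The labels do not say whether the exposures came from separate cultures or which control animals served each of them. A high ratio from more RNA in exposed animals and one from less RNA in their controls cannot be told apart. In RNA from whole animals, neither can fewer cells of a type and less RNA per cell.

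Daphnia females kept in culture reproduce mostly by parthenogenesis, moulting and releasing a brood at regular intervals. RNA from a whole animal therefore mixes gut, muscle, cuticle, fat cells, ovary and developing embryos, and much of a female's expression changes over the cycle of moulting and egg production. Dissolved copper is toxic to freshwater crustaceans and is known to disturb their sodium uptake. The features carry array IDs alone. Of 7680 IDs, 0 were found in a RefSeq gene table of this species, so no gene name, role or sequence is given for a member.

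Across the 47 members, the median ratio was 0.65 in upstream exposure 2, 0.29 in entry exposure 1, 0.57 in downstream 1 exposure 1 and 0.75 in downstream 2 exposure 2. These are the 4 exposures of the set. Their companions at the same sites had medians of -0.21 and -0.02 (upstream exposures 1 and 3), -0.43 and 0.00 (entry exposures 2 and 3), -0.30 and 0.06 (downstream 1 exposures 2 and 3) and -0.31 and -0.16 (downstream 2 exposures 1 and 3). Over all 6951 features the medians of the 12 exposures lay between -0.0166 and 0.0336. The entry exposure was the weakest of the set: 37 members were above 0 there, against 39, 44 and 46 in the set exposures of upstream, downstream 1 and downstream 2.

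**Figure D1:**
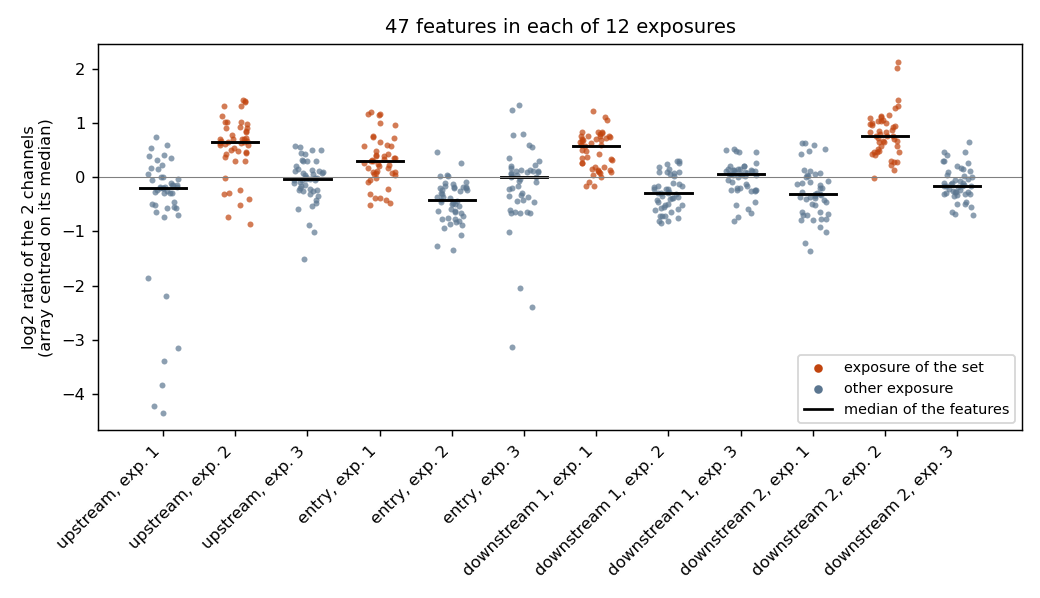
Log2 ratio (vertical axis) of the 47 features in each of 12 exposures (horizontal axis), with a point for each feature and a bar at their median. The set exposures, in red, have medians of 0.29 to 0.75, and 7 features lie below -1.5 in upstream exposure 1.

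The difference between the set mean and the mean of the other 8 exposures ranged from 0.60 to 1.41, with a median of 0.69 beside 0.02 over all 6951 features. It exceeded 1 in 8 members. In 17 members all 4 set exposures were above all 8 others, while in the rest at least 1 other exposure overlapped the set. The set exposure was the highest of its site at all 4 sites in 26 members, at 3 sites in 14, at 2 in 6 and at 1 in 1.

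The 4 members with the largest differences had nearly the same profile, and P6BC10 led them. It was at 1.42 in upstream exposure 2, 1.15 in entry exposure 1, 0.80 in downstream 1 exposure 1 and 1.28 in downstream 2 exposure 2. Its other 8 exposures ran from -0.92 through a median of -0.26 to 0.56, so the groups did not overlap. The mean was 1.16 ± 0.26 in the set (SD, n = 4) and -0.25 ± 0.49 in the others (SD, n = 8), a 2.66-fold difference if the base is 2. P12CH1 was at 1.30, 1.20, 0.76 and 1.04 in the set, in the same order of sites, and between -0.78 and 0.14 elsewhere. P8DG7 was at 1.39, 1.17, 0.76 and 1.14, and elsewhere between -0.89 and 0.57. All 3 were highest in upstream water among the set, and downstream 1 gave their lowest set value. P8BG5 was at 1.31, 1.17, 0.72 and 0.94 in the set and fell as low as -1.22 in downstream 2 exposure 1.

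Pearson correlations over the 12 exposures describe how alike the members were. Over all 1081 pairs r ran from -0.39 to 1.00 with a median of 0.57, and part of this likeness follows from the rule. Joining members in chains at r of at least 0.95 gave 5 groups with 21 members in all, and left 26 members alone. This grouping was made after the values were seen. The largest group held 8 features: the 4 above, P10DA5, P5CG7, P6DH8 and P5CD1, with r from 0.91 to 0.99. Their median was 1.16, 1.07, 0.74 and 1.00 in the set exposures of upstream, entry, downstream 1 and downstream 2. In the same group the lowest medians were -0.75 in entry exposure 2, -0.73 in downstream 2 exposure 1 and -0.56 in downstream 1 exposure 2. The profile was shared while its height was not. P10DA5 was at 1.01, 1.00, 0.81 and 0.97 in the set, an SD of 0.09, whereas P5CD1 was at 0.37, 0.09, 0.01 and 0.22. P5CD1 reached its difference of 0.62 mainly because its other exposures averaged -0.44. Whether these IDs stand for the same transcript was not tested.

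A second group of 6 was defined by one exposure outside the set. A6H21, A1D22, A1B11, A6F24, A6H2 and P6AG12 correlated with r from 0.97 to 1.00, and their ratio in upstream exposure 1 lay between -4.35 and -2.18. A1B11 was at -4.35 there, -0.87 in upstream exposure 2 and -0.26 in upstream exposure 3. At the entry it was at -0.43, -0.63 and -0.66 in exposures 1, 2 and 3. It was at -0.17, -0.52 and 0.12 at downstream 1, and at -0.38, 0.75 and -0.27 at downstream 2. Above 0 it stood only in downstream 2 exposure 2 and downstream 1 exposure 3. A1D22 was at -4.22 in upstream exposure 1 and A6H21 at -3.84, and in the set they averaged -0.11 and -0.04. Without upstream exposure 1 the difference between set and others in the 6 features fell to between 0.19 (A1B11) and 0.37 (P6AG12), under the limit of 0.6. Both arrays of that exposure gave low values for A1B11, -4.49 with exposed RNA in Cy5 and -4.20 in Cy3. The arrays disagreed for P3CB5, a member outside these groups, at -3.50 and -0.23.

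**Figure D2:**
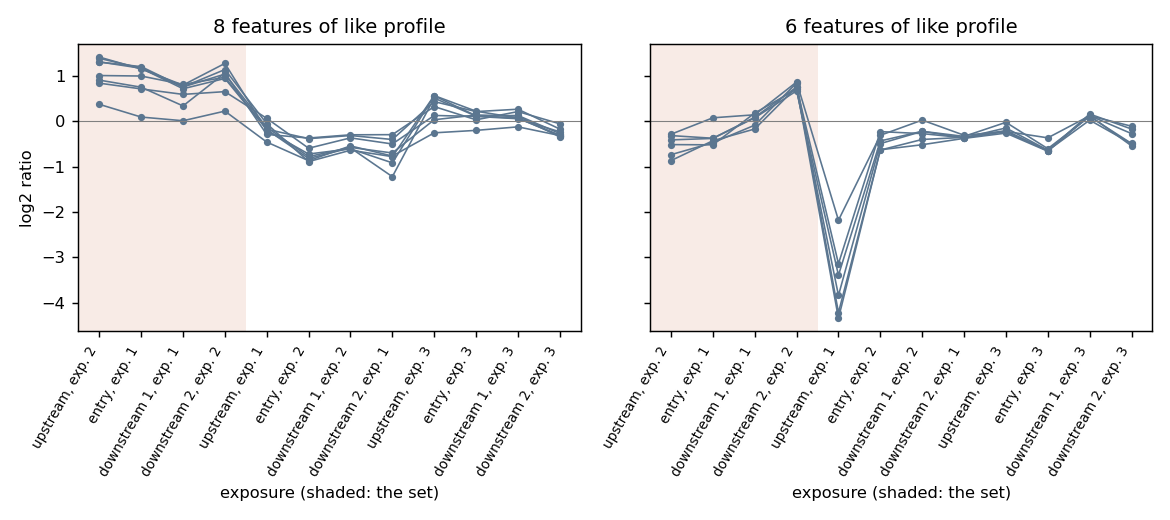
Log2 ratios (vertical axis) of the 8 features (left) and the 6 features (right) of like profile over 12 exposures, with a line for each feature and the set exposures shaded. On the left the set is high in nearly every line, and on the right upstream exposure 1 lies between -4.35 and -2.18.

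Other members had profiles of their own. A5J17 was at 0.71, 0.23, 1.11 and 2.02 in the set exposures of upstream, entry, downstream 1 and downstream 2, a mean of 1.02 ± 0.76 (SD, n = 4). Elsewhere its lowest value was -1.52 (upstream exposure 3) and its highest 0.64 (downstream 2 exposure 3), which overlapped the set. P2AA1 was at -0.02, 0.75, 0.76 and 1.30 in the set, and at -3.13 in entry exposure 3. A5N5 was at 0.30, -0.22, 0.83 and 2.13 in the set, and at -2.05 in entry exposure 3. With A5N8, at -2.40, these were the 3 members below -2 in that exposure. Missing arrays bear on these profiles. P2AA1 and A5N5 each had 6 exposures with a value on 1 array alone, entry exposure 3 among them, and A5J17 had 5. A5N8 had 3, also with entry exposure 3 among them. The low values of P2AA1, A5N5 and A5N8 there all came from the array with exposed RNA in Cy3. Without entry exposure 3 their differences between set and others were 0.80, 0.77 and 0.49. The 2.13 of A5N5 in downstream 2 exposure 2 also came from 1 array. Without that exposure its difference between set and others was 0.56. The 2.02 of A5J17 there averaged 3.20 with exposed RNA in Cy5 and 0.84 in Cy3. Of the 47 members, 31 had a value on all 24 arrays (66.0%, beside 73.0% of all features with 12 exposures).

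P9AA7 departed from the set at the entry, with -0.10 in exposure 1 against 1.13, 0.48 and 0.58 in the set exposures of upstream, downstream 1 and downstream 2. Its lowest value was -1.35, in downstream 2 exposure 1. P5CG7, of the group of 8, was at 0.84, 0.71, 0.59 and 0.65 in the set and at most 0.13 outside it. P13AH7 and P11AC7 formed a pair with r of 1.00, chosen for naming after their values were seen. Both were highest outside the set, at 1.33 and 1.25 in entry exposure 3, so at the entry the set exposure was not the top one.

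The ratio to control gives another way to sort the members. In 29 the set mean was more than 2 times the size of the mean of the other exposures. In 10 the reverse held, with the mean of the other exposures below 0 and the set mean nearer 0, and 8 met neither condition. The sorting compares 2 means, so it does not show that either differed from control. The set mean was above 0 in 43 members, from -0.18 (A1B11) to 1.16 (P6BC10). The mean of the others was below 0 in 39, from -0.87 (A1B11) to 0.11. The 6 features low in upstream exposure 1 were all among the 10.

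The limit of 0.6 cut through a continuous range. The members just inside were P5CD1, P10CD6 and P11BB9, with differences of 0.617, 0.605 and 0.601. The features just outside that met the other conditions were A6P9, P6CE12 and P2CA7, with 0.598, 0.597 and 0.597. P10CD6 was at 0.77, 0.36, 0.82 and 0.83 in the set but also at 0.80 in entry exposure 3. P11BB9 was at 0.64, 0.32, 0.69 and 0.67 and at most 0.25 elsewhere. The limit on the mean removed more features: 145 met the first 2 conditions, and 98 of these had a mean over the entry and downstream exposures at or beyond 0.4 in size, 92 negative and 6 positive. The members nearest that limit were A7C18 at -0.384 and P7DB12 at 0.355, and the features just beyond it, P11BD2 and P4DD4, were both at -0.414.

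The difference can be described in each dye orientation, although the rule chose the members on the average of these same arrays. On arrays with exposed RNA in Cy5 the set exceeded the others in 47 of 47 members, by 0.34 to 1.51 with a median of 0.66. With exposed RNA in Cy3 it did so in 47 of 47 as well, by 0.29 to 1.39 with a median of 0.71. In 24 members the difference was at least 0.6 in each orientation. The whole rule, run on 1 orientation, found 18 of the 47 with exposed RNA in Cy5 and 25 with it in Cy3. Each run used only features with a value on every array of its orientation (5652 in Cy5 and 5912 in Cy3, beside 6951). Members lacking such a value could not be found, so these counts do not measure disagreement between dyes alone. P6BC10 gave differences of 1.51 and 1.32 in Cy5 and Cy3. P12BA9, the lowest in Cy3, gave 0.95 and 0.29, and A7C18, the lowest in Cy5, gave 0.34 and 1.06. The arrays of an exposure share both RNA pools, so they repeat the measurement and not the exposure. Over members, both arrays of a set exposure correlated with r of 0.47 (upstream), 0.32 (entry), 0.14 (downstream 1) and -0.03 (downstream 2). Over all features these were 0.65, 0.76, 0.54 and 0.55. Members were chosen by a high average of these same arrays, which can narrow their range and lower r. The values over members and over all features are therefore not comparable as measures of array agreement. In the other exposures r over members ran from 0.04 to 0.83. In 16 members at least 1 exposure had a value on 1 array alone, so some differences rest on fewer exposures. The counts of 47 give the sign of a mean difference, not array agreement in each exposure.

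**Figure D3:**
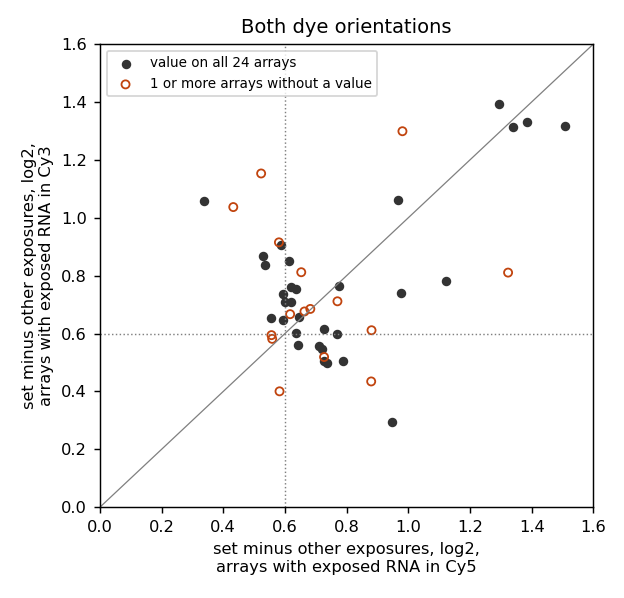
Difference between the set mean and the mean of the other exposures (log2) for each of 47 features on arrays with exposed RNA in Cy5 (horizontal axis) and in Cy3 (vertical axis). All points are above 0 on both axes, dotted lines mark 0.6, and open circles are features with an array that gave no value.

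The dye itself is a measure the rule did not use, since averaging both arrays of an exposure cancels it where both gave a value. For each exposure the value with exposed RNA in Cy3 was subtracted from that with exposed RNA in Cy5 and the result divided by 2. Its mean over the sites passed limma's test (adjusted p under 0.05) in 30 of the 40 members with enough arrays, 75%, beside 56.4% of all 6691 features tested. The median size was 0.19 in these members and 0.11 over all features, and the called members divided into 14 positive and 16 negative (46.7% positive, beside 55.5% of all called features). A1J23 had the lowest p, with -0.27 (SE 0.02, limma adjusted p 9.3e-06), followed by P11AG11 with -0.23 (SE 0.02, limma adjusted p 2e-05). P9AE6 had a larger effect of -0.50 (SE 0.05, limma adjusted p 3.2e-05). No difference between the members and the rest was tested.

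The next question was whether the members differed between sites or from control once all 3 exposures of a site were averaged. In limma at an adjusted p under 0.05, 0 of 47 members were called against control at any site, beside 8.22% of 7388 features called at 1 or more sites. By site the members called were 0 in each case, for upstream, entry, downstream 1 and downstream 2 in turn, beside 0%, 5.48%, 3.21% and 6.66% of all features. At an unadjusted p under 0.05 there were 9 members (19.1%, beside 31.6% of all features), 8 of them upstream and 1 at downstream 2. The upstream count was 17% of members beside 6.5% of all features, and it became 0 when upstream exposure 1 was left out. Of these 8, P2AH3 and A1G3 averaged above 0 upstream, at 0.78 and 0.56. The others were the 6 features low in upstream exposure 1, which averaged below 0. In other fits 1 or 2 members were called at 1 or more sites, below the share of all features each time: 1 when all 24 arrays entered (13.6% of all features), 1 when arrays were weighted (16%), 1 on the arrays that had exposed RNA in Cy5 (14.9%) and 2 on those that had it in Cy3 (20.5%). The rule held the mean over the mine-water exposures near 0 and made the spread within a site large, so these counts describe the choice. The pooled SD within sites had a median of 0.57 in members and 0.23 over all features.

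Between sites 0 members were called in any of the 6 pairs, beside 1.75% of all features in 1 or more pairs, and 0 of the 47 reached an unadjusted p under 0.05, beside 18.6%. In the paired fit (replicate block), 18 members (38.3%) did so in 1 or more pairs, beside 20.9% of all features, 12 of them in downstream 2 minus upstream, and 0 members and 0 features were called. The F test over the 4 sites called 0, beside 0.568% of all features, with 0 members at an unadjusted p under 0.05 beside 7.81%. The wide spread within sites, which the rule selected for, enters the error of the unpaired tests. Their counts of 0 therefore describe the choice and are no result about sites. The replicate block takes out spread shared by exposures of equal number, as the set exposures of upstream and downstream 2 are. In that pair the 12 members were 25.5%, beside 12.8% of all features. The set exposures of entry and downstream 1 share a number too. In the remaining pairs of sites some equal-numbered exposures had negative r once site means were taken off. The lowest r was -0.62 for upstream with entry and -0.49 for entry with downstream 2. It was -0.45 for upstream with downstream 1 and -0.33 for downstream 1 with downstream 2. The pairing was read from these data and the rule bears on it, so the paired counts are no result about members or sites either. No difference between the members and the rest was tested. The 95% intervals of the site differences extended, on each side, by a median of 0.95 in members and 0.42 in all features.

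P2CF2 had the lowest p among the members in the F test. It was at -0.55, 0.49 and -0.42 in upstream exposures 1, 2 and 3, and at 0.62, 0.80 and 0.40 at downstream 2. The sites overlapped, and downstream 2 minus upstream was 0.77 (SE 0.35, limma adjusted p 0.48). Against control, downstream 2 stood at 0.61 (SE 0.25, limma adjusted p 0.20), with all 3 exposures above 0. P6AG12 and A1B11 followed in the F test, and in both the low value in upstream exposure 1 set the upstream mean apart. P6AG12 averaged -0.90 upstream and 0.15 at downstream 2, a difference of 1.05 (SE 0.49, limma adjusted p 0.49). For A1B11 these means were -1.83 and 0.03 (difference 1.86, SE 0.86, limma adjusted p 0.49). Over all members the median of the site means was 0.12 for upstream, -0.06 for entry, 0.08 for downstream 1 and 0.13 for downstream 2 water.

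The 8 exposures outside the set were not alike either. Exposure 1 lay below exposure 3 in 33 of 47 members upstream (70.2%) and in 34 at downstream 2 (72.3%). Exposure 2 lay below exposure 3 in 34 at the entry (72.3%) and in 36 at downstream 1 (76.6%). Over all features these shares were 51.4%, 50.5%, 52.3% and 51.6%, in the same order. The median gap in the members was -0.29 upstream, -0.18 at downstream 2, -0.43 at the entry and -0.32 at downstream 1. The order in which these exposures are set side by side was chosen after the values were seen. It contrasts exposures that the rule averaged together, and it has no test.

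**Figure D4:**
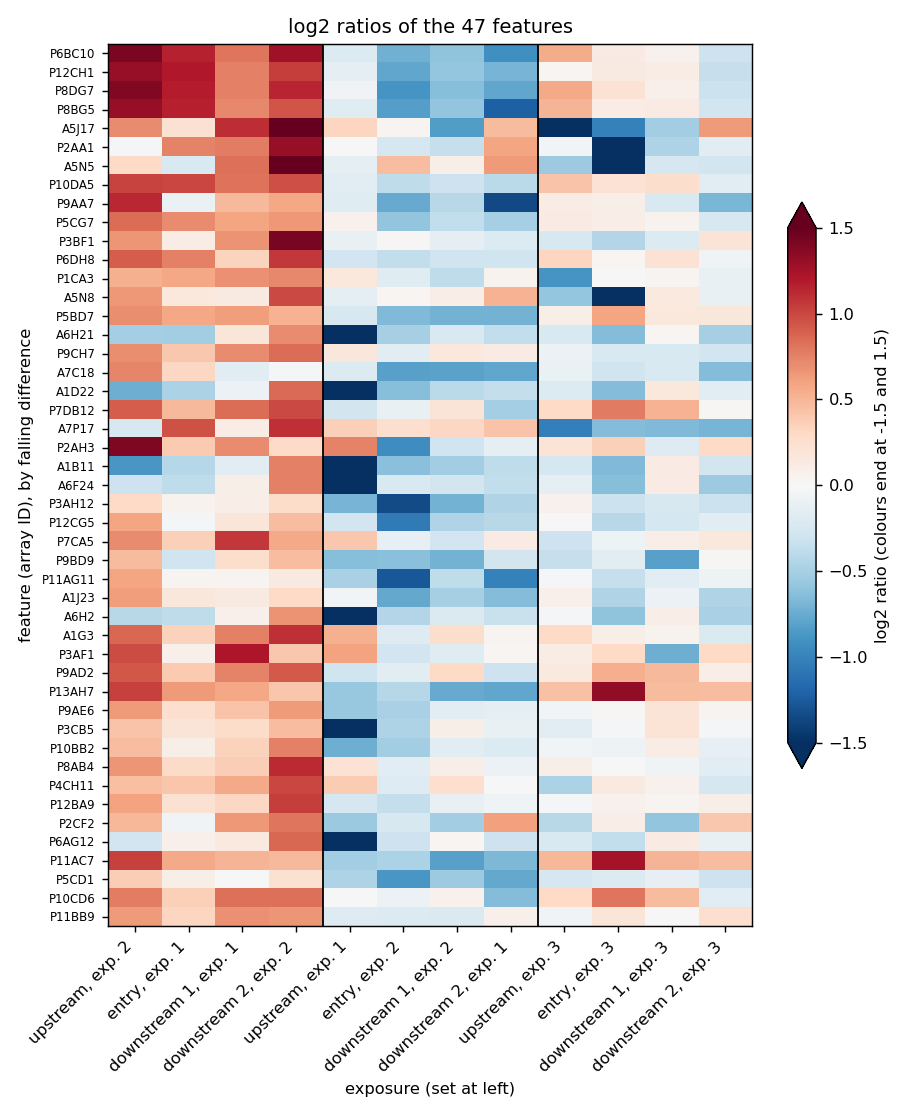
Log2 ratios of the 47 features (rows, by falling difference between set and others) in 12 exposures (columns), with the set in the left block and colours ending at -1.5 and 1.5. The left block is mostly positive, the middle block mostly negative, and the right block holds medians of -0.16 to 0.06.

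Correlations between exposures were also taken over features outside both lists. After each feature's site mean was taken off, the 6 pairs of set exposures correlated with r from 0.31 to 0.46 over the features that met neither this rule nor its mirror image. The 24 pairs with 1 exposure in the set gave -0.50 to 0.19. Among the remaining exposures, upstream 1, entry 2, downstream 1 exposure 2 and downstream 2 exposure 1 gave 0.32 to 0.60 over 6 pairs. The 4 exposures numbered 3 gave 0.25 to 0.53 over 6 pairs, and the 12 pairs across these gave -0.38 to 0.04. Features that met the first 2 conditions alone, and those just under 0.6, remain in these values, so they are not independent of the rule and carry no test. With the site mean taken off, the deviations of a feature at a site also sum to 0. Positive r among the set exposures therefore pushes r in the pairs with 1 exposure in the set below 0. The pairs across the other exposures are bound in the same way. Whether the exposures shared a day, control animals or an array batch is not stated, and the part of any of these in the members' pattern was not tested.

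The array IDs start with A (2688 features) or P (4992 features), which the labels do not explain. Of the 47 members, 35 start with P and 12 with A, so that A makes up 25.5% of members beside 30.3% of features with 12 exposures. No members came from IDs starting with A2, A3 or A4, and the share elsewhere ran from 0.263% (P13) to 1.34% (P9). Turning the rule around gave 450 features, 440 of them starting with A (97.8%), which is 20.9% of A features and 0.206% of P features. The median of those 450 was -1.23, -1.28, -0.69 and -0.57 in the set exposures of upstream, entry, downstream 1 and downstream 2. Before the limit on the mean the counts were 145 high and 559 low features, so the ratio of low to high depends on that limit, and it was not tested.

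**Figure D5:**
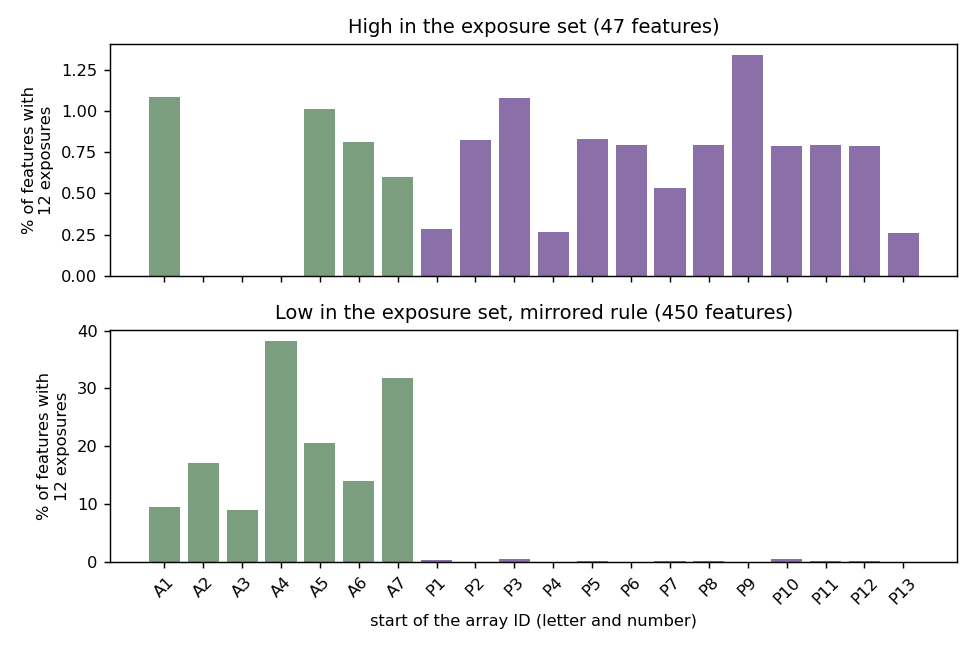
Share of features with 12 exposures (percent, vertical axis) that are high in the set (upper panel) or low in it by the mirrored rule (lower panel), by the letter and number that start the array ID. The upper bars reach 1.34% and occur under both letters, while the lower bars are tall under A alone.

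The unequal move of A features touches how many members there are. With arrays centred on the median of all features, the median of P features was 0.07 in the set and -0.02 in the others, a gap of 0.09. Centring on P features took this gap off, left 18 features, all among the 47, and lowered the median difference of the 47 from 0.69 to 0.60. Membership therefore depends on the centring, and not through the limit of 0.6 alone. The median difference of 0.601 still met that limit while 18 features met the whole rule, so the other conditions removed members too.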

How the data were processed

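Per the labels, RNA of 10 to 15 pooled animals per exposure was turned into aminoallyl cDNA, coupled to Cy3 or Cy5 and hybridised on 24 2-colour arrays, 2 per exposure. The deposited values are log ratios, taken as log2. Log base, direction, scanner and any background correction or normalization were not given in the sources used here. Deposited array medians lay between -0.0359 and 0.0257, and 7015 to 7472 features had a value on an array. No intensities were used, so the number of exposures sets the precision.

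Arrays were centred on their median and both arrays of an exposure averaged, so 1 exposure is 1 replicate. P-values measure the spread between exposures, which may be technical. Features with a value in 2 of 3 exposures at every site (7388, including all 47 members) entered a limma fit (lmFit and eBayes, limma 3.58.1, R 4.3.3) with Benjamini-Hochberg adjustment per comparison. The dye fit needed both arrays. Fits and rule were tested on simulated data. Plots used Python 3.11.15 and matplotlib 3.10.9.

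The members, lists and tests were chosen with earlier results of these data known. Named features are the 10 members with the largest difference, the 3 on each side of the limit, the 3 highest in the set, the 3 lowest in the others, and the 3 of lowest p in the F and dye tests. Any other was named after its values were seen. Whether exposures of equal number deviate together from their site means was checked by correlation. Every same-numbered pair exceeded 0.1 for the entry with downstream 1 (0.43 to 0.55) and for upstream with downstream 2 (0.22 to 0.51), from the data and not the labels. In the other pairs of sites the lowest r was between -0.62 and -0.33, so there the numbers do not mark a pairing. Fits were unpaired, with a replicate block as an alternative.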

Additional observations from a re-analysis of the deposited data

How the results depend on the processing

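No member was called in any comparison of pairs of sites or in the F test under the alternatives run: scaled arrays, all 24 arrays, array weights, 1 dye orientation, other filters, and each exposure left out (0 to 0). Of all features, 0.206% (without upstream exposure 1) to 7.2% (all 24 arrays) were called in 1 or more pairs in these fits. By the F test the share ran from 0.123% to 5.13% in the same 2 fits. Both sites fitted alone and the paired fit (replicate block by exposure number) called 0 members between sites, beside 0.409% and 0% of all features. In the paired fit 18 members (38.3%, beside 20.9% of all features) had an unadjusted p under 0.05 in 1 or more pairs. Exposure numbers did not mark a pairing in every pair of sites, so this count is no result about members. Over all features the calls in 1 or more pairs went from 129 of 7388 to 0 of 7560 in the paired fit. Its 0 members were therefore bound to follow. Against control at 1 or more sites the 0 became 1 with all 24 arrays (P2CF2; 13.6% of all features), 1 with array weights (P12CG5; 16%), 1 with exposed RNA in Cy5 alone (A7C18; 14.9%) and 2 with Cy3 alone (P2CF2 and P9AE6; 20.5%). It was 0 to 0 with an exposure left out, beside 6.11% to 8.66% of all features. The dye effect was called in 27 to 30 of the 37 to 39 members tested with an exposure left out, and in 27 of 40 with scaled arrays. In the main fit it was 75% of members tested, beside 56.4% of all features. The share of all features in the other dye fits is not given here, so these counts describe no trait of the members. The rule found 76 features with exposed RNA in Cy5 alone (18 of the 47 among them), 66 with Cy3 alone (25), 32 with scaled arrays (27), 31 with values on both arrays required, 108 at a limit of 0.5, 12 at 0.8, 145 with no limit on the mean, and 18 with centring on P features, an alternative chosen after seeing the data. A run on 1 orientation could not find members that lacked a value on any of its arrays. Leaving out an exposure gave 34 to 111 features. The 111 came without entry exposure 1, with 45 of the 47 among them. Leaving out a set exposure also dropped the order condition at its site, so the rule was then looser. Without upstream exposure 1 there were 47 again, 31 of them shared. The median difference between set and others in the 47 members ran from 0.63 to 0.79 with an exposure left out. Causes were not tested. Without intensities, signal over background cannot be weighed.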
